A study of Mus musculus with 8 samples.

Results

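The transcription factors described here set and keep the identity of B lymphocytes, the antibody-forming white cells. The 10 genes were taken by symbol, Ebf1, Pax5, Spib, Pou2af1, Pou2f2, Bach2, Foxo1, Bcl6, Irf4 and Ikzf3, with no threshold on a measured value. They were, however, chosen with earlier results of these data known. All 10 were found among 35897 genes with counts summed over their transcripts, and all 10 passed the filter on low counts that kept 10354 genes for testing. RNA came from mouse buffy coat, the layer of white cells and platelets between plasma and red cells in spun blood. One group was exposed to PM2.5, fine airborne particulate matter, for 24 weeks and the other was the PBS (phosphate-buffered saline) control over the same time. The PM2.5 group held 4 libraries, replicates 9, 17, 18 and 21, and the PBS group held 4, replicates 4, 10, 12 and 16. The labels give no strain, age, sex, particle source or route of exposure. Nor do they tie each library to an animal of its own, and p-values therefore cover the spread between these 8 libraries, which may be technical.

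Early B cell factor 1, encoded by Ebf1, and PAX5 commit lymphoid progenitors to the B lineage and hold mature B cells in it, switching on the genes of the B cell receptor. FOXO1 acts with them and controls homing and survival genes of resting lymphocytes. BACH2 represses the plasma cell programme, which IRF4 and PRDM1 drive, while BCL6 is the repressor that defines germinal centre B cells. POU2F2 (Oct-2) and its coactivator POU2AF1 (OBF-1) bind octamer elements in immunoglobulin promoters, SPIB is an ETS factor that shares sites with PU.1, and IKZF3 (Aiolos) is an Ikaros family zinc finger protein. FOXO1, BACH2, BCL6, IRF4 and IKZF3 are also made by T cells, so in blood these transcripts are not particular to B cells.

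Each library held 72081019 to 89032794 expected counts, of which the 4 haemoglobin genes took 86.7% to 88.6% with PM2.5 and 82.3% to 87.9% with PBS. This left 9615115 to 12714432 counts per library for all other genes, and the 10 factors were covered by 48 to 1365 counts each per library. B cell markers were present throughout, with 10 of 10 detected, and their summed level was 52.3 to 70 CPM with PM2.5 and 59.5 to 91.9 CPM with PBS, ranges that overlap. CPM here means counts per 1000000 counts of a library, haemoglobin included, scaled by the trimmed mean of M values (TMM). None of the 10 B cell markers passed the test, and all 10 had a negative log2 fold change (median -0.30).

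Of the 10 factors, Ebf1, Bach2 and Pou2af1 fell with PM2.5, none rose, and 7 did not pass (edgeR quasi-likelihood test, Benjamini-Hochberg adjusted over all 10354 genes, threshold 0.05). Over all genes tested, 1.13% were called lower and 0.464% higher. Negative log2 fold changes were found in 9 of the 10, with a median of -0.43, against a median of 0.04 over all genes tested. All 4 PM2.5 libraries lay below all 4 PBS libraries for 4 of the 10, Ebf1, Bach2, Pou2af1 and Foxo1, a pattern seen in 6.64% of all genes tested. Because the 10 were chosen with earlier results of these data known, these figures only describe the factors beside all genes. In whole blood cell RNA, fewer B cells and less of a transcript per B cell cannot be told apart.

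**Figure D1:**
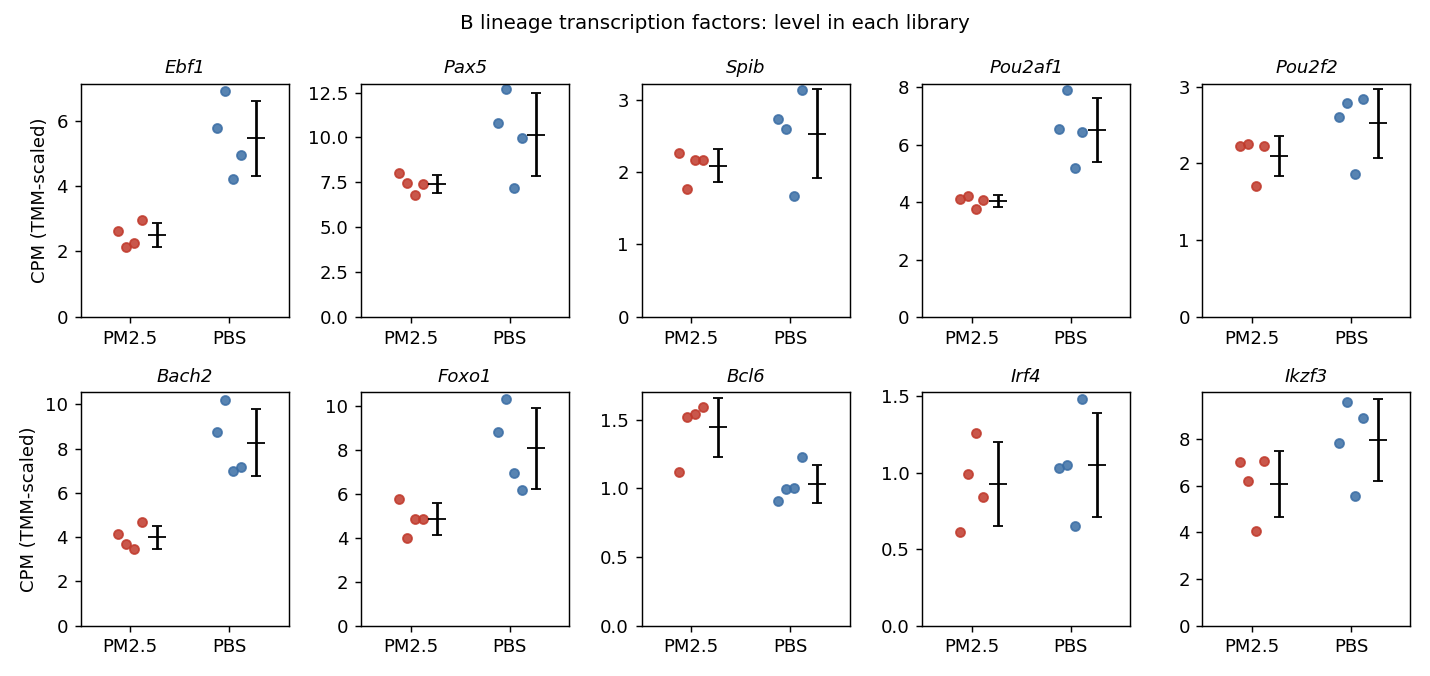
Level of each of the 10 factors in every library, in TMM-scaled CPM on a linear axis from 0, with PM2.5 libraries (red) left of PBS libraries (blue). Points are libraries, and the bar beside each group is its mean ± SD (n = 4). The groups do not overlap for Ebf1, Pou2af1, Bach2 and Foxo1, and Bcl6 is the factor with the higher mean in PM2.5 libraries, 1.44 against 1.03 CPM.

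Ebf1 (ENSMUSG00000057098.14; chromosome 11, 44617317 to 45008091, plus strand, GRCm38) was at 2.64, 2.14, 2.26 and 2.97 CPM in PM2.5 replicates 9, 17, 18 and 21. In PBS replicates 4, 10, 12 and 16 it was at 5.78, 6.89, 4.2 and 4.95 CPM. The highest PM2.5 library was thus below the lowest PBS library, and the PM2.5 libraries spread less than the PBS libraries. Means ± SD of the 4 libraries were 2.5 ± 0.376 CPM with PM2.5 and 5.46 ± 1.15 CPM with PBS. The log2 fold change of -1.12 (SE 0.177) passed in edgeR with an adjusted p of 0.00648. Its raw expected counts were 117 to 250 per library with PM2.5 and 311 to 739 with PBS.

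Pax5 (chromosome 4, 44524757 to 44710487, minus strand), which acts beside Ebf1 in commitment, differed less between the groups. Its levels were 8.0, 7.44, 6.79 and 7.39 CPM in PM2.5 replicates 9, 17, 18 and 21, and 10.8, 12.7, 7.16 and 9.96 CPM in PBS replicates 4, 10, 12 and 16. PBS replicate 12 was inside the PM2.5 range and the other 3 PBS libraries lay above it. The log2 fold change was -0.46 (SE 0.179) and did not pass (edgeR adjusted p = 0.202).

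Bach2 (chromosome 4, 32238804 to 32586108, plus strand), the repressor of plasma cell differentiation, followed Ebf1 closely from library to library. It was at 4.16, 3.70, 3.48 and 4.66 CPM in PM2.5 replicates 9, 17, 18 and 21, and at 8.76, 10.2, 6.98 and 7.15 CPM in PBS replicates 4, 10, 12 and 16. No PM2.5 library reached the lowest PBS library. Means ± SD were 4.0 ± 0.521 CPM over the PM2.5 libraries and 8.28 ± 1.52 CPM over the PBS libraries. Its log2 fold change was -1.05, with SE 0.171 and an edgeR adjusted p of 0.00712.

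Pou2af1 (chromosome 9, 51213708 to 51240080, plus strand), the octamer coactivator, was nearly level among PM2.5 libraries, at 4.12, 4.23, 3.76 and 4.07 CPM in replicates 9, 17, 18 and 21. In PBS replicates 4, 10, 12 and 16 it was at 6.53, 7.92, 5.18 and 6.45 CPM, all above the PM2.5 libraries. In edgeR its log2 fold change of -0.69 (SE 0.158) had an adjusted p of 0.0359. Leaving out any of PM2.5 replicates 17, 18 and 21 or of PBS replicates 4 and 10 ended this call (adjusted p = 0.0814, 0.105, 0.0849, 0.0568 and 0.12), whereas the calls of Ebf1 and Bach2 were kept whichever single library was left out. With PM2.5 replicates 17 and 18 both left out, none of the 3 passed, at log2 fold changes of -0.95 for Ebf1, -0.90 for Bach2 and -0.66 for Pou2af1 (adjusted p = 0.126, 0.142 and 0.242).

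The partner that POU2AF1 binds, Pou2f2 (chromosome 7, 25087344 to 25179726, minus strand), was at 2.22, 2.25, 1.70 and 2.22 CPM in PM2.5 replicates 9, 17, 18 and 21. In PBS replicates 4, 10, 12 and 16 it was at 2.61, 2.78, 1.86 and 2.84 CPM. PBS replicate 12 was within the PM2.5 range, so the groups overlapped (log2 fold change -0.27, SE 0.172, edgeR adjusted p = 0.414). The ETS factor Spib (chromosome 7, 44525993 to 44532071, minus strand) was at 2.27, 1.76, 2.17 and 2.16 CPM in those PM2.5 libraries, and at 2.73, 2.59, 1.67 and 3.13 CPM in those PBS libraries. Here PBS replicate 12 was the lowest of all 8 libraries, and the log2 fold change of -0.28 (SE 0.185) did not pass (adjusted p = 0.427).

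Foxo1 (chromosome 3, 52268336 to 52353221, plus strand), the forkhead factor of resting lymphocytes, was at 5.76, 3.98, 4.85 and 4.85 CPM in PM2.5 replicates 9, 17, 18 and 21. PBS replicates 4, 10, 12 and 16 had 8.83, 10.3, 6.95 and 6.19 CPM. The groups did not overlap, and PM2.5 replicate 9 and PBS replicate 16 came nearest to each other. At a log2 fold change of -0.73 (SE 0.183) the edgeR adjusted p was 0.0539, just outside the threshold. Foxo1 passed without PM2.5 replicate 9 (-0.85, adjusted p = 0.0321), without PBS replicate 16 (-0.85, adjusted p = 0.025) and in DESeq2 (-0.73, adjusted p = 0.00719). It did not pass in edgeR with any other single library left out (adjusted p = 0.0524 to 0.172). Nor did it pass without PM2.5 replicates 17 and 18 (-0.59, adjusted p = 0.367).

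Bcl6 (chromosome 16, 23965052 to 23988852, minus strand), the germinal centre repressor, was the exception in direction. Levels were 1.12, 1.52, 1.54 and 1.59 CPM in PM2.5 replicates 9, 17, 18 and 21, and 0.905, 0.998, 0.999 and 1.23 CPM in PBS replicates 4, 10, 12 and 16. PM2.5 replicate 9 lay below PBS replicate 16 and the other 3 PM2.5 libraries lay above every PBS library. The log2 fold change of 0.48 (SE 0.188) did not pass (edgeR adjusted p = 0.203), and it was -0.11 with scaling to library totals, a scaling that moved the median of all genes to -0.52.

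Irf4 (chromosome 13, 30749226 to 30766976, plus strand), which drives plasma cell differentiation at high dose, was the lowest of the 10 per transcript length. It was at 0.61, 0.99, 1.26 and 0.843 CPM in PM2.5 replicates 9, 17, 18 and 21, and at 1.03, 1.05, 0.648 and 1.48 CPM in PBS replicates 4, 10, 12 and 16. Both ranges covered nearly the same values (log2 fold change -0.21, SE 0.259, edgeR adjusted p = 0.684). Ikzf3 (chromosome 11, 98464902 to 98546031, minus strand) was at 7.02, 6.18, 4.05 and 7.06 CPM in those PM2.5 libraries, and at 7.83, 9.56, 5.55 and 8.88 CPM in those PBS libraries. PBS replicate 12 was again inside the PM2.5 range, and the log2 fold change of -0.39 (SE 0.201) did not pass (adjusted p = 0.314).

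Levels of different genes were compared per length, in the deposited FPKM (fragments per kilobase of transcript and per 1000000 fragments), summed over the transcripts of a gene. Ikzf3 was highest with PM2.5 at 2.26 ± 0.822 FPKM, against 3.7 ± 1.41 FPKM with PBS. Pou2af1 was at 1.54 ± 0.432 FPKM with PM2.5 and 3.76 ± 1.32 FPKM with PBS, and Pax5 was at 1.57 ± 0.587 FPKM with PM2.5 and 3.49 ± 1.73 FPKM with PBS (SDs over 4 libraries). These 3 were the most abundant factors in both groups, and their places among themselves were within the spread of the libraries. In PBS libraries the order then ran Bach2 (2.74 ± 0.741 FPKM), Ebf1 (1.8 ± 0.717), Spib (1.5 ± 0.599), Foxo1 (1.23 ± 0.483), Pou2f2 (0.738 ± 0.289), Bcl6 (0.390 ± 0.0983) and Irf4 (0.305 ± 0.132). Every neighbouring pair in that order had overlapping means ± SD. With PM2.5, Ebf1 was at 0.540 ± 0.261 FPKM, behind Bach2 at 0.810 ± 0.545 and Spib at 0.752 ± 0.223 FPKM, and again within their spread. FPKM is relative to all fragments including haemoglobin, so its differences between groups also carry the haemoglobin share, and in this unit the groups stayed apart for Ebf1 and Bach2 and overlapped for the other 8.

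To see whether a factor differed beyond the summed B cell markers, libraries were scaled by the summed counts of 8 B cell markers, among them the B cell receptor chains Cd79a and Cd79b. Ebf1 had 92.0, 72.6, 90.9 and 88.7 counts per 1000 marker counts in PM2.5 replicates 9, 17, 18 and 21, and 160, 162, 148 and 114 in PBS replicates 4, 10, 12 and 16. Bach2 had 145, 125, 140 and 139 in those PM2.5 libraries, and 243, 240, 247 and 165 in those PBS libraries. For both, each PM2.5 library remained below each PBS library, with PBS replicate 16 nearest to the PM2.5 group. Bcl6 went the other way, with 39.0, 51.5, 61.8 and 47.6 per 1000 in the PM2.5 libraries and 25.1, 23.4, 35.3 and 28.3 in the PBS libraries, again without overlap.

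On this scale the log2 fold change was -0.76 for Ebf1 (SE 0.217), -0.70 for Bach2 (SE 0.228) and 0.84 for Bcl6 (SE 0.235). None of the 10 factors passed the edgeR test over all genes, these 3 having adjusted p = 0.0853, 0.109 and 0.0845, and 3 of the 10 had an unadjusted p under 0.05. Over all genes this scaling called 0.00966% lower and 0.831% higher, with 2702 of 10354 at an unadjusted p under 0.05, and it moved the median log2 fold change of all genes to 0.39. A scaling shifts all genes together, and the distance of each factor from the median of all genes stayed close to its distance under TMM. Foxo1 (-0.37), Pou2af1 (-0.32), Pax5 (-0.08), Ikzf3 (-0.02), Pou2f2 (0.10), Spib (0.11) and Irf4 (0.21) had adjusted p from 0.323 to 0.952. Apart from Foxo1 and Pou2af1, these were smaller in size than their standard errors of 0.202 to 0.275. Without PBS replicate 12, Ebf1 (-0.76, adjusted p = 0.0279), Bach2 (-0.65, 0.0442) and Bcl6 (0.95, 0.0225) passed, in a fit that called 1943 genes in place of 87.

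**Figure D2:**
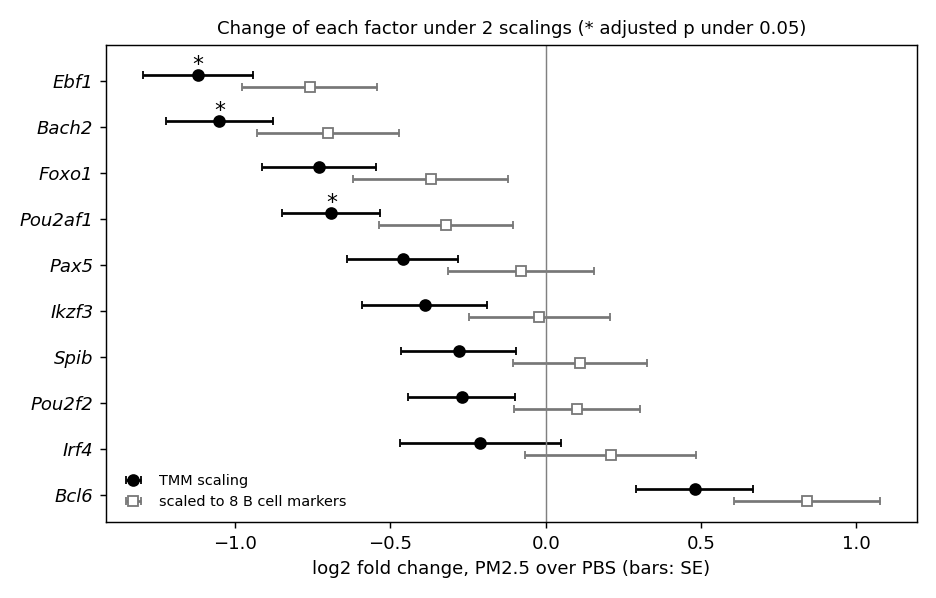
Log2 fold change, PM2.5 over PBS, of each factor with TMM scaling (filled circles) and with scaling to the summed counts of 8 B cell markers (open squares), bars showing the SE and asterisks an adjusted p under 0.05. Ebf1 and Bach2 are furthest to the left under both scalings, at -1.12 and -1.05 and at -0.76 and -0.70, and Bcl6 is furthest to the right.

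Counts of Ebf1 were spread mainly over 3 of its 7 annotated transcripts. Ebf1-201 and Ebf1-202 are protein coding, and the last exon of Ebf1-202 is shorter by 2562 bases. Ebf1-207 is annotated as a noncoding processed transcript of 6 exons that reads through the splice donor at the end of exon 6 and runs 3351 bases into intron 6, which is 225622 bases long, so that 84.5% of its bases are intronic in Ebf1-201. The junctions that set these transcripts apart are shown from the GENCODE M21 transcripts, 30 bases on each side, on the plus strand of GRCm38 (chr11:44643440-44869121 spliced, chr11:44643440-44643499 unspliced and chr11:44883926-44907936 spliced). Capitals mark the donor dinucleotide kept in Ebf1-207, and the 3 added bases at the start of exon 9 in Ebf1-202.
Ebf1-201 exon 6 to exon 7: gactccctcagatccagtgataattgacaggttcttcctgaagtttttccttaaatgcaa
Ebf1-207 exon 6 into intron 6: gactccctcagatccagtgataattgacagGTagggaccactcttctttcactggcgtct
Ebf1-201 exon 8 to exon 9: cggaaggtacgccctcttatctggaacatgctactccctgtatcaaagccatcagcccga
Ebf1-202 exon 8 to exon 9: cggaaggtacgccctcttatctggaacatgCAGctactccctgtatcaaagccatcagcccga

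Ebf1-207 held 27, 28.5, 25.2 and 39.9 expected counts in PM2.5 replicates 9, 17, 18 and 21. In PBS replicates 4, 10, 12 and 16 it held 207.1, 205.7, 101.3 and 131.2. Every PM2.5 library was well below every PBS library, also after TMM scaling, at 0.336 to 0.523 CPM with PM2.5 and 1.19 to 1.92 CPM with PBS. Its log2 fold change was -1.84 (SE 0.264), with an unadjusted p of 7.79e-05 and an adjusted p of 0.163 over 19836 transcripts in edgeR. Of all transcripts tested, 0.0% were called lower and 0 higher, while 2054 had an unadjusted p under 0.05, and with no filter on low counts 1 was called, which was higher. The coding transcript Ebf1-201 had 104.0, 79.0, 65.2 and 131.1 counts in the PM2.5 libraries and 237.5, 405.1, 131.6 and 288.7 in the PBS libraries, and its log2 fold change was -0.93 (SE 0.256, adjusted p = 0.338). Its highest PM2.5 count lay just under its lowest PBS count. Ebf1-202 overlapped between the groups (-0.76, SE 0.490, adjusted p = 0.622).

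As a share of all Ebf1 counts, Ebf1-207 took 12.8%, 24.4%, 20.7% and 15.9% in PM2.5 replicates 9, 17, 18 and 21, and 32.8%, 27.8%, 32.6% and 24.1% in PBS replicates 4, 10, 12 and 16. PM2.5 replicate 17 and PBS replicate 16 were the libraries that overlapped. Mean shares ± SD were 18.4% ± 5.13 in PM2.5 libraries and 29.3% ± 4.17 in PBS libraries, a difference of -10.9 percentage points (two-sided exact permutation p = 0.0571, adjusted over 4 shares 0.229). The smallest p that 70 arrangements allow is 0.0286, so a single share could not have passed once adjusted over 4 shares. Shares of Ebf1-201 and Ebf1-202 differed by 8.71 and 4.58 points with exact p = 0.257 and 0.543. With Ebf1-207 left out, the remaining Ebf1 counts came to 2.3, 1.62, 1.79 and 2.5 CPM in the PM2.5 libraries and 3.88, 4.97, 2.83 and 3.76 CPM in the PBS libraries. The groups remained apart, and the log2 fold change was -0.91 (SE 0.19, edgeR adjusted p = 0.0237).

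**Figure D3:**
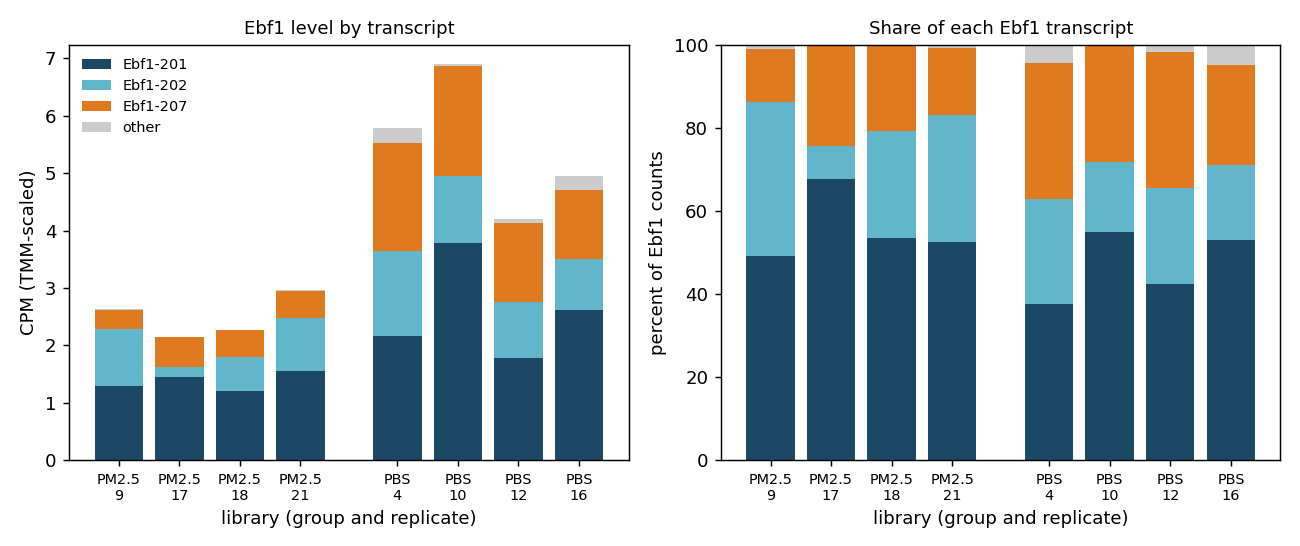
Ebf1 in each library, stacked by transcript, as TMM-scaled CPM (left) and as percent of the Ebf1 counts (right), with PM2.5 libraries left of PBS libraries. Ebf1-207 (orange), the transcript that ends in intron 6, takes 12.8% to 24.4% in PM2.5 libraries and 24.1% to 32.8% in PBS libraries, and the summed level is lower in every PM2.5 library.

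Pax5 counts lay almost wholly in the coding transcript Pax5-201, out of 20 annotated transcripts of which 8 had any count. Pax5-201 took 92.6%, 90.9%, 93.2% and 92.9% of Pax5 counts in PM2.5 replicates 9, 17, 18 and 21, and 91.8%, 95.7%, 94.1% and 92.1% in PBS replicates 4, 10, 12 and 16. The ranges overlapped (difference -1.05 points, two-sided exact permutation p = 0.371). Of the 19836 transcripts tested over all genes, 2054 had an unadjusted p under 0.05 in edgeR. Over the 10 factors, 59 transcripts were annotated, 43 had counts, 23 were tested, 7 had an unadjusted p under 0.05 and 0 passed in edgeR. Beside Ebf1-207, a second transcript with intron sequence was among these 7, Ikzf3-203, annotated as a retained intron. It held 33, 14.1, 14 and 30 counts in the PM2.5 libraries and 61.1, 60.3, 44.0 and 106.2 in the PBS libraries, without overlap (log2 fold change -1.06, SE 0.340, adjusted p = 0.382). The coding transcript Ikzf3-201 was at -0.40 (SE 0.256, adjusted p = 0.615) and the groups overlapped. Bcl6-202, also annotated as a retained intron and tested, was not among the 7. Its groups overlapped (log2 fold change -0.51, SE 0.684, edgeR adjusted p = 0.835).

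For Irf4, Pou2f2 and Bach2 the split between overlapping coding transcripts jumped from library to library, so single transcripts of these genes were read only in sum. Irf4-201 and Irf4-202 differ by 3 bases at the start of exon 5 (chr13:30752750-30753477, plus strand, spliced, GRCm38), shown with the added bases in capitals.
Irf4-201 exon 4 to exon 5: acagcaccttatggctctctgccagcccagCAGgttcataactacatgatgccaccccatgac
Irf4-202 exon 4 to exon 5: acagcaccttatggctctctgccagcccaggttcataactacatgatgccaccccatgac
Of the counts of this pair, Irf4-201 was given 0.122%, 100%, 7.17% and 6.89% in PM2.5 replicates 9, 17, 18 and 21, and 100%, 74.8%, 33.1% and 100% in PBS replicates 4, 10, 12 and 16. Pou2f2-203 took between 0.0% and 100% of its pair with Pou2f2-209, and Bach2-202 between 9.32% and 100% of its pair with Bach2-207. These pairs differ in length by 48 and 389 bases. For Ebf1-201 and Ebf1-202, which differ in length by 2559 bases, the first took 56.8% to 89.4% of the pair.

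The 5 genes whose pattern over the 8 libraries was nearest to Ebf1 were picked among 5066 genes with a mean of at least 1 CPM, leaving out predicted genes, RIKEN clones and antigen receptor segments. The measure was the root mean square difference of log2(CPM + 0.5) after centring each gene on its mean. Bach2 was nearest, at 0.0603, where the median gene was at 0.589. Then came Atp2b1, a calcium pump of the plasma membrane, at 0.099, Slc4a7, a bicarbonate transporter, at 0.1, Nktr, a cyclophilin-like protein, at 0.109, and Arhgap15, which inactivates Rac, at 0.118. Arhgap15, the least near of them, was at 3.48, 3.01, 2.65 and 4.15 CPM in PM2.5 replicates 9, 17, 18 and 21, and at 6.65, 7.28, 5.66 and 6.07 CPM in PBS replicates 4, 10, 12 and 16. Log2 fold changes of Atp2b1, Slc4a7, Nktr and Arhgap15 were -1.0, -1.06, -0.95 and -0.94. Among the other factors, Foxo1 was at place 37, Pou2af1 at 44 and Pax5 at 175 in this order, while Bcl6 was at 3781. The measure uses the group difference as well as the spread within groups.

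Other genes of the programme were counted by lists that hold no member. The counts of every list stand beside 1.13% of all genes tested called lower and 0.464% called higher. Of 20 partner transcription factors, 19 were tested, 2 fell, none rose and 17 did not pass, with a median log2 fold change of -0.40. The 2 were Zfp318, a zinc finger protein needed for IgD expression, and Tcf12, the E protein HEB. Zfp318 averaged 3.84 ± 0.482 CPM in PM2.5 and 6.43 ± 1.33 CPM in PBS libraries (log2 fold change -0.74, SE 0.172, edgeR adjusted p = 0.0383). Tcf12 averaged 2.54 ± 0.23 CPM in PM2.5 and 3.9 ± 0.417 CPM in PBS libraries (-0.62, SE 0.15, adjusted p = 0.0467; SDs over 4 libraries, here and in the lists that follow). Zfp318 lost its call in 5 and Tcf12 in 6 of the 8 fits that left out 1 library (adjusted p up to 0.13 and 0.134).

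Among 17 genes that EBF1 or PAX5 are known to activate, 16 were tested, 2 fell, none rose and 14 did not pass, with a median of -0.29. Blk, a Src family kinase of the B cell receptor pathway, was at 2.22 ± 0.448 CPM with PM2.5 and 3.87 ± 0.863 CPM with PBS (log2 fold change -0.81, SE 0.193, edgeR adjusted p = 0.0436). Bank1, a scaffold of the same pathway, was at 5.46 ± 1.02 CPM with PM2.5 and 9.43 ± 2.13 CPM with PBS (-0.79, SE 0.193, adjusted p = 0.048). The groups overlapped for both, and each lost its call in 7 of the 8 fits that left out 1 library. In the list of FOXO1 targets, 9 of 11 were tested, 1 fell, none rose and 8 did not pass, with a median of -0.31. The 1 was Bcl2l11, whose product BIM promotes apoptosis, at 1.79 ± 0.199 CPM with PM2.5 and 3.01 ± 0.563 CPM with PBS (-0.75, SE 0.174, adjusted p = 0.0392), a call lost in 6 of those 8 fits.

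The plasma cell programme, which BACH2 holds back in mouse B cells, had 6 of 8 genes tested, of which 2 rose, none fell and 4 did not pass, with a median of 0.28. Jchain, which links the chains of polymeric antibodies, was at 0.486 ± 0.212 CPM with PM2.5 and 0.0949 ± 0.0578 CPM with PBS, without overlap (log2 fold change 2.28, SE 0.445, edgeR adjusted p = 0.0169). Igha, the IgA heavy chain constant region, was at 1.53 ± 0.749 CPM with PM2.5 and 0.281 ± 0.223 CPM with PBS, with overlap (2.39, SE 0.480, adjusted p = 0.0198). The call of Jchain ended without any of PM2.5 replicate 18 and PBS replicates 4 and 10, and that of Igha without any of those and PM2.5 replicate 21 (adjusted p up to 0.0716 and 0.065). The regulators of this list did not pass, with Prdm1 at 0.25 (SE 0.355, adjusted p = 0.738) and Xbp1 at 0.31 (SE 0.166, adjusted p = 0.33), and Tnfrsf17 had 0 counts in all 8 libraries. Mzb1 had the opposite sign, at -0.42 (SE 0.37, edgeR adjusted p = 0.554), and Sdc1 was at 0.17 (SE 0.565, adjusted p = 0.896). Summed markers of plasma cells, Jchain among them, overlapped at 0.61 to 1.61 CPM with PM2.5 and 0.662 to 1.14 CPM with PBS. Whether the lower Bach2 had a part in these values was not tested. Of 8 genes of early B precursors, 2 were tested and neither passed, Il7r at -0.25 (adjusted p = 0.558) and Sox4 at 0.21 (adjusted p = 0.749). Vpreb1, Igll1 and Rag2 had 0 counts in all 8 libraries, so they were not detectable at this depth.

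**Figure D4:**
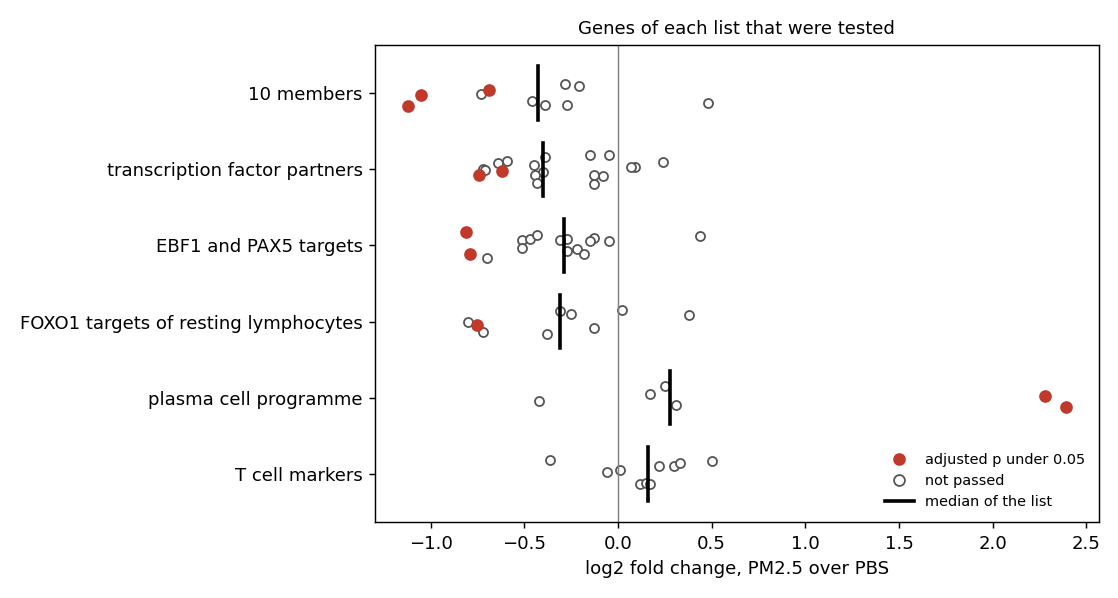
Log2 fold change, PM2.5 over PBS, of every tested gene in the 10 factors, the 4 gene lists of the programme and the T cell markers, with filled red points for an adjusted p under 0.05 and a bar at each list's median. The medians are -0.43 for the factors, -0.40 for partners, -0.29 for EBF1 and PAX5 targets, -0.31 for FOXO1 targets, 0.28 for the plasma cell programme and 0.16 for T cell markers.

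Summed markers of other blood cells lay apart between the groups for some cell types and overlapped for others, erythroid cells and platelets among the latter. The summed neutrophil markers were 27.1 to 53.0 CPM with PM2.5 and 13.3 to 26.8 CPM with PBS, without overlap, and 3 of the 6 tested of 7 rose. These were S100a8, Mmp9 and Cxcr2, whose calls were lost in 5, 5 and 6 of the 8 fits that left out 1 library (edgeR adjusted p up to 0.136, 0.219 and 0.226). Monocyte markers summed to 96.5 to 140 CPM with PM2.5 and 72.2 to 103 CPM with PBS (1 of the 5 tested of 6 rose), and NK markers to 4.94 to 9.51 CPM with PM2.5 and 4.09 to 5.53 CPM with PBS (1 of 6 rose). The groups overlapped in both sums, and 0.464% of all genes tested were called higher. The monocyte call was Ccr2, which passed in all 8 of those fits, and the NK call was Ncr1, which was lost in 7 of them (edgeR adjusted p up to 0.159). T cell markers overlapped, at 13.2 to 17 CPM with PM2.5 and 9.54 to 16.5 CPM with PBS, with 2 of 10 negative and none past the test. The 4 markers of plasmacytoid dendritic cells, which also use Spib, summed to 2.07 to 2.47 CPM with PM2.5 and 2.47 to 4.03 CPM with PBS, without overlap before rounding. Most of that sum was Tcf4, which B cells also transcribe, at 1.66 ± 0.271 CPM with PM2.5 and 2.72 ± 0.538 CPM with PBS, while their defining marker Siglech had 10 counts over the PM2.5 libraries and 14 over the PBS libraries. The part of these cell type differences in the values of the 10 factors was not tested, apart from the scaling to B cell markers above.

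Promoters were read from RefSeq windows (GRCm38.p6) of 250 bases before to 50 after a start, found for 9 of the 10 factors in 11 windows. Ikzf3 was not among them. Both strands were searched for the EBF core CCCNNGGG, the octamer ATGCAAAT, the ETS-IRF composite GGAANNGAA and the FOXO element GTAAACA, which 13.7%, 1.74%, 8.25% and 3.65% of 32817 windows hold. Matches were found in 5 of the 11 windows, and no match of one motif overlapped a match of another. Ebf1, Pax5, Pou2af1 and Irf4 had none, Spib had a pair of overlapping EBF cores starting at -65 and -64, Pou2f2 an ETS-IRF composite at -119, and Bcl6 one at -28 in its second window. Bach2 had an ETS-IRF composite at -16 from the start of Bach2-207, within an intron of Bach2-202, and Foxo1 an EBF core at -91. These stretches of the 2 factors without group overlap that had a match are shown on the plus strand with the match in capitals (chr4:32417375-32417434 and chr3:52268227-52268286).
Bach2 upstream: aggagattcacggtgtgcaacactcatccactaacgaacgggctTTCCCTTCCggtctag
Foxo1 upstream: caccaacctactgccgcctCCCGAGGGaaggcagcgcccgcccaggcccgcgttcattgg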

How the data were processed

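Per the labels' protocols, buffy coat RNA was copied from random primers and the second strand was marked with dUTP and digested. HISAT2 2.0.1, cutadapt 1.9.1, bcl2fastq 2.17.1.14 and the build GRCm38 come from the submitters' processing notes. How reads were counted, by strand or not, is not given in the sources used here, and an antisense partner's reads could therefore fall to a factor. The deposited table gives, per transcript and library, expected counts (estimated counts, not normalized by the authors, with 76.3% of the values above 0 not exactly whole) and FPKM, which the authors scaled by transcript length and library fragments, per the file headers.

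Here 116710 of 118783 transcripts were matched to GENCODE M21, and counts were summed to 35897 gene symbols and rounded. The 2073 unmatched transcripts held 0.0266% to 0.0532% of a library and were dropped. Counts of every pair of libraries differed by more than sampling noise. Genes and transcripts were tested with edgeR 4.0.16 (R 4.3.3; two-sided quasi-likelihood test, TMM, group alone, genes kept by filterByExpr at minimum count 10 and total 15), adjusted over all features, threshold 0.05. An SE is the log2 fold change over the square root of F. Shares of at least 5% of Ebf1 or Pax5 were compared by exact permutation (SciPy 1.17.1). Alternatives were other scalings, no filter, DESeq2 1.42.0, limma 3.58.1 on log2(FPKM + 1) or log2(FPKM + 0.1), and libraries left out. The factors and gene lists were chosen with earlier results of these data known. All factors are named, with list genes that passed, or otherwise the 2 with the smallest p. Prdm1, Xbp1, Tnfrsf17, Mzb1, Sdc1, Tcf4, S100a8, Mmp9, Cxcr2, Ccr2, Ncr1, Siglech, the precursor genes at 0 and Ikzf3-203 were named after their values were seen. The procedure was tested on simulated data, where it called 28% of genes changed 1.5-fold and 86% of those changed 2-fold. At 3-fold and 4-fold it called 100%, and 6 of 163 calls were false. A factor that did not pass may still differ by 1.5-fold, or by 2-fold, since some changes of that size were missed too.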

Additional observations from a re-analysis of the deposited data

Results flagged for a closer look

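In 2 of the 20 groups of 4 libraries formed by the 10 factors and both conditions, a single library stood apart from the other 3 by Dixon's gap test, which marks about 1 group in 20 by chance. Pou2f2 was at 1.70 CPM in PM2.5 replicate 18, where the other PM2.5 libraries were at 2.22 to 2.25 CPM, and the gap was 0.93 of the group's range. Bcl6 was at 1.12 CPM in PM2.5 replicate 9, against 1.52 to 1.59 CPM in the other PM2.5 libraries, and the gap was 0.85 of the range. No library was marked for Ebf1, Bach2, Pou2af1 or Foxo1.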

How the results depend on the processing

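The count of factors called, 3 in the reported fit, was 5 with library totals, 0 without PM2.5 replicates 17 and 18, and 2 to 4 with 1 library left out. With limma on log2(FPKM + 1) and on log2(FPKM + 0.1) it was 0, among only Pax5, Spib, Pou2af1, Bach2 and Ikzf3. Library totals moved the median of all genes to -0.52 and added Foxo1 (-1.29, adjusted p = 0.016) and Pax5 (-1.05, 0.0412). Removing haemoglobin moved that median to -0.30 and added Foxo1 (-1.06, 0.0338), as did median ratio factors (-0.72, 0.0486) and no filter (-0.75, 0.00253). In limma, Ebf1, Foxo1, Pou2f2, Bcl6 and Irf4 were below the FPKM minimum of 1 in too many libraries to be tested. Of the others, Bach2 was at -1.07 (0.139) and -1.77 (0.164), and Pou2af1 at -0.87 (0.155) and -1.19 (0.164). With 1 library left out Ebf1 ranged over -1.22 to -1.02 (adjusted p 0.00735 to 0.0307) and Bach2 over -1.13 to -0.96 (0.00787 to 0.0319). Foxo1 ranged over -0.85 to -0.62 in those fits (0.025 to 0.172). Without PM2.5 replicates 9 and 21, chosen after seeing the data, Pou2af1 was at -0.73 (0.0862) and Irf4 at 0.06. Bcl6 was at -0.11 with library totals. Scaled to B cell markers, 0 factors were called, and 0 to 3 with 1 library left out, the 3 without PBS replicate 12. Cd79a and Cd79b alone put Spib at -0.02 and Pou2f2 at -0.04, and with 1 library left out Irf4 ranged over -0.07 to 0.37 (adjusted p 0.43 to 0.911) and Ikzf3 over -0.11 to 0.07 (0.81 to 0.99), with -0.07 and 0.07 without PM2.5 replicate 18 and 0.01 for Ikzf3 without PBS replicate 10. No transcript of the factors was called in any setting run (0 to 0 with 1 library left out). Share differences ranged over 4.73 to 11.3 points for Ebf1-201, 0.649 to 10.4 for Ebf1-202, -12.9 to -8.98 for Ebf1-207 and -1.60 to -0.287 for Pax5-201, which was 0.824 as a share of FPKM. Genes called over the whole table, 165 in the reported fit (48 higher, 117 lower), were 491 with library totals (9 and 482), 621 with no filter (310 and 311), 367 in DESeq2 (98 and 269), 231 with haemoglobin removed (10 and 221), 0 in both limma fits (718 and 695 unadjusted), 8 without PM2.5 replicates 17 and 18, and 34 to 194 with 1 library left out, the 34 without PBS replicate 10. Without replicates 9 and 21 they were 191 (109 and 82). Scaled to B cell markers they were 87, 44 with Cd79a and Cd79b alone, and 30 to 1943 with 1 library left out. The causes were not tested. Each factor had 48 to 1365 counts in a library, and the part of depth in the lost calls was not tested. No paired analysis was possible because the groups share no replicate numbers.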

Other observations

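The following were looked at after the data were seen, and no test was run on them. Ebf1 and Bach2 are the longest of the 10 genes, spanning 391 kb and 347 kb, and 1.11% and 1.42% of the genes tested are longer. Of 193 tested genes spanning over 300 kb, 12 were called lower with PM2.5 (6.22%) and 0 higher, against 105 of 10161 shorter genes lower (1.03%) and 48 higher. Ebf1 and Bach2, whose lengths prompted this count, are among the 12, and the threshold was set with both in view. The median log2 fold change was -0.01 for the longer genes and 0.05 for the others. Transcripts annotated as retained introns took 2.10%, 1.79%, 1.74% and 2.01% of the counts outside haemoglobin in PM2.5 replicates 9, 17, 18 and 21. In PBS replicates 4, 10, 12 and 16 they took 2.53%, 2.90%, 2.22% and 2.55%, so every PM2.5 library was below every PBS library. Ebf1-207 is annotated as a processed transcript and not counted in that class, whose share was 3.05% to 3.23% with PM2.5 and 3.14% to 3.43% with PBS, with overlap.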
